A study of Mus musculus with 2 samples.

Results

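The BMP ligand genes Bmp1, Bmp2, Bmp3, Bmp4, Bmp5, Bmp6 and Bmp7, 7 of the 19550 genes counted, were followed across cell classes, regions and stages of the developing mouse gastroesophageal squamo-columnar junction (GE-SCJ), the boundary between esophagus and stomach. They were taken by name, and each had UMIs (unique molecular identifiers, each counting 1 captured transcript) in several classes. Wild type C57BL/6 mice were sampled at embryonic days E15 and E19, as pups of day 2 and as adults of 8 weeks. Per the labels, these were 6, 2, 2 and 3 mice, while the methods of the study state another number. Esophagus, GE-SCJ and stomach were cut apart and dissociated with collagenase, and cells of all mice of a region and stage were pooled under 1 multiplexing oligo (tag) before 10x Genomics 3′ sequencing. Each region and stage is therefore 1 pooled sample with no replicate, no test was run on any difference, and the intervals given are exact 95% Poisson or binomial intervals that cover counting error only.

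The 7808 cells held 107865155 UMIs, with a median of 10424.5 per cell, in 11 of 12 combinations of region and stage (143 to 1403 cells each). Adult stomach was not analysed here. GE-SCJ samples held both squamous and columnar cells. CPM stands for a gene's share of the summed UMIs of a group, scaled to a total of 1000000. The authors' 9 labels were read as 8 classes: their stromal label is called fibroblast here, and their squamous labels were joined. These classes held 3442 fibroblasts, 1540 columnar, 1027 smooth muscle, 730 squamous, 419 neural, 354 immune, 157 endothelial and 139 mesothelial-like cells. Every marker fixed for a class was detected in its own label. The authors name the last of these a second stromal population. It held 2551.6 CPM of 5 mesothelial markers but also 7655.5 CPM of 6 fibroblast markers, and it is called mesothelial-like here. Fibroblast markers summed to between 2887.5 and 8698.9 CPM in smooth muscle groups and to between 137 and 4450 CPM in columnar groups, against 8946 to 37284 CPM in fibroblast groups.

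Bone morphogenetic proteins are secreted dimers that bind paired type I and type II serine/threonine kinase receptors and signal through SMAD1, SMAD5 and SMAD9 to targets such as the Id genes. In the embryonic foregut, mesenchymal BMP signalling takes part in separating the esophagus from the airway and in patterning the stomach, and secreted antagonists such as noggin and chordin limit it. Bmp2 and Bmp4 encode closely related ligands, and Bmp5, Bmp6 and Bmp7 form a further subgroup of the family. Bmp3 encodes a divergent member that can oppose BMP signalling, and Bmp1 is no BMP ligand in the strict sense, since it encodes the metalloprotease that trims procollagens and cleaves chordin.

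On the GRCm38 build, Bmp4 lies on the minus strand at chr14:46383520-46390669 and Bmp5 on the plus strand at chr9:75775364-75900310. Bmp1 is at chr14:70474558-70520234, Bmp2 at chr2:133552159-133562885, Bmp3 at chr5:98854415-98884396, Bmp6 at chr13:38345107-38500302 and Bmp7 at chr2:172868012-172940321. Genes on the opposite strand that overlap Bmp4 (Gm15222), Bmp5 (Gm26903) and Bmp6 (Txndc5) were counted separately. Bmp4 and Bmp5 were both higher in stomach than in esophageal fibroblasts at E15 and E19, and their promoters are shown for that reason. The 250 bases before each start are from RefSeq on GRCm38.p6, at chr14:46390670-46390919 on the minus strand and chr9:75775115-75775364 on the plus strand, 5′ to 3′, with GC boxes (GGGCGG) in capitals. The last base of the Bmp5 window is also the first base of the gene as placed above.
Bmp4: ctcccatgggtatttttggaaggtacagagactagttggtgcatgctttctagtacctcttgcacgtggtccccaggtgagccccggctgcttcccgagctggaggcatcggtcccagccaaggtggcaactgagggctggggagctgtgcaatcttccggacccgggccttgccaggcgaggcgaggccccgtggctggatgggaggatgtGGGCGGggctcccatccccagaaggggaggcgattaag
Bmp5: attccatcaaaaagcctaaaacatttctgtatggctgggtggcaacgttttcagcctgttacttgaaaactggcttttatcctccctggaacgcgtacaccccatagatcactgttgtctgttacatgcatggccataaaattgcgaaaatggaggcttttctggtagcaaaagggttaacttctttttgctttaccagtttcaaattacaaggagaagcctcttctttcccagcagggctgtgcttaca
Bmp4 held 1 GC box, which begins 38 bases before the start, and 32.74% of the 32851 promoter windows of this length held at least 1. Other motifs were searched on both strands, and neither window held any of them. CACCCACG, a GLI-type site, was found in 0.7823% of all windows. For TATAAA, the TATA box, the share was 12.37%. For GGCGCC, the core of a BMP-response element, it was 9.586%, and for TGTTTAC, a forkhead site, it was 3.166%. These letters say nothing about binding outside the windows.

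Most ligand transcripts came from fibroblasts, but Bmp2 UMIs were more often columnar and Bmp7 was spread over fibroblasts, epithelium and neural cells. Fibroblasts held 30.1% of all UMIs, columnar cells 40.1%, squamous cells 9.93% and neural cells 3.47%. They held 89.7% of the 8635 Bmp4 UMIs, 80.7% of the 839 Bmp5 UMIs, 73.1% of the 5138 Bmp1 UMIs, 70.8% of the 520 Bmp6 UMIs and 67.2% of the 816 Bmp3 UMIs. Of the 4700 Bmp2 UMIs, 55.1% came from columnar cells and 30.6% from fibroblasts. The 1372 Bmp7 UMIs divided into 36.2% from fibroblasts, 25.7% from columnar, 20.2% from squamous and 13.3% from neural cells.

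The order of classes was also read from the unweighted mean over groups of region and stage with at least 10 cells. Bmp4 averaged 217.5 CPM in fibroblasts (65.3 to 388 CPM), 57.0 CPM in smooth muscle (9.68 to 260 CPM), 56.2 CPM in mesothelial-like and 3.73 CPM in columnar cells. Bmp1 averaged 133.66 CPM in fibroblasts, and the next class, mesothelial-like, 67.1 CPM. For Bmp5 the means were 19.2 CPM in fibroblasts (0 to 44.8 CPM) and 18.3 CPM in smooth muscle (0 to 66.3 CPM). Fibroblasts thus led for these 3 ligands, and columnar cells had the lowest mean of Bmp4 and Bmp1.

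The other 4 ligands had another leading class. Bmp3 averaged 15.7 CPM in smooth muscle and 14.1 CPM in fibroblasts. Bmp2 averaged 54.4 CPM in columnar cells, 53.0 CPM in fibroblasts, 49.3 CPM in immune cells and 48.9 CPM in smooth muscle. Neighbouring classes in these orders overlapped in range for each of the 7 ligands. First place passed to another class under some of the other settings tried for Bmp2 and Bmp3 (to fibroblasts), Bmp5 (to smooth muscle or mesothelial-like cells) and Bmp7 (to squamous cells), whereas Bmp1 and Bmp4 stayed with fibroblasts and Bmp6 with mesothelial-like cells in each of them. Bmp6 averaged 54.8 CPM in mesothelial-like cells (10.4 to 93.3 CPM) and 15.6 CPM in fibroblasts, but 21.6 against 16.1 CPM among cells led by the markers of their own label. Bmp7 averaged 30.9 CPM in neural cells (0 to 76.6 CPM), 26.9 CPM in squamous cells and 13.4 CPM in fibroblasts.

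**Figure D1:**
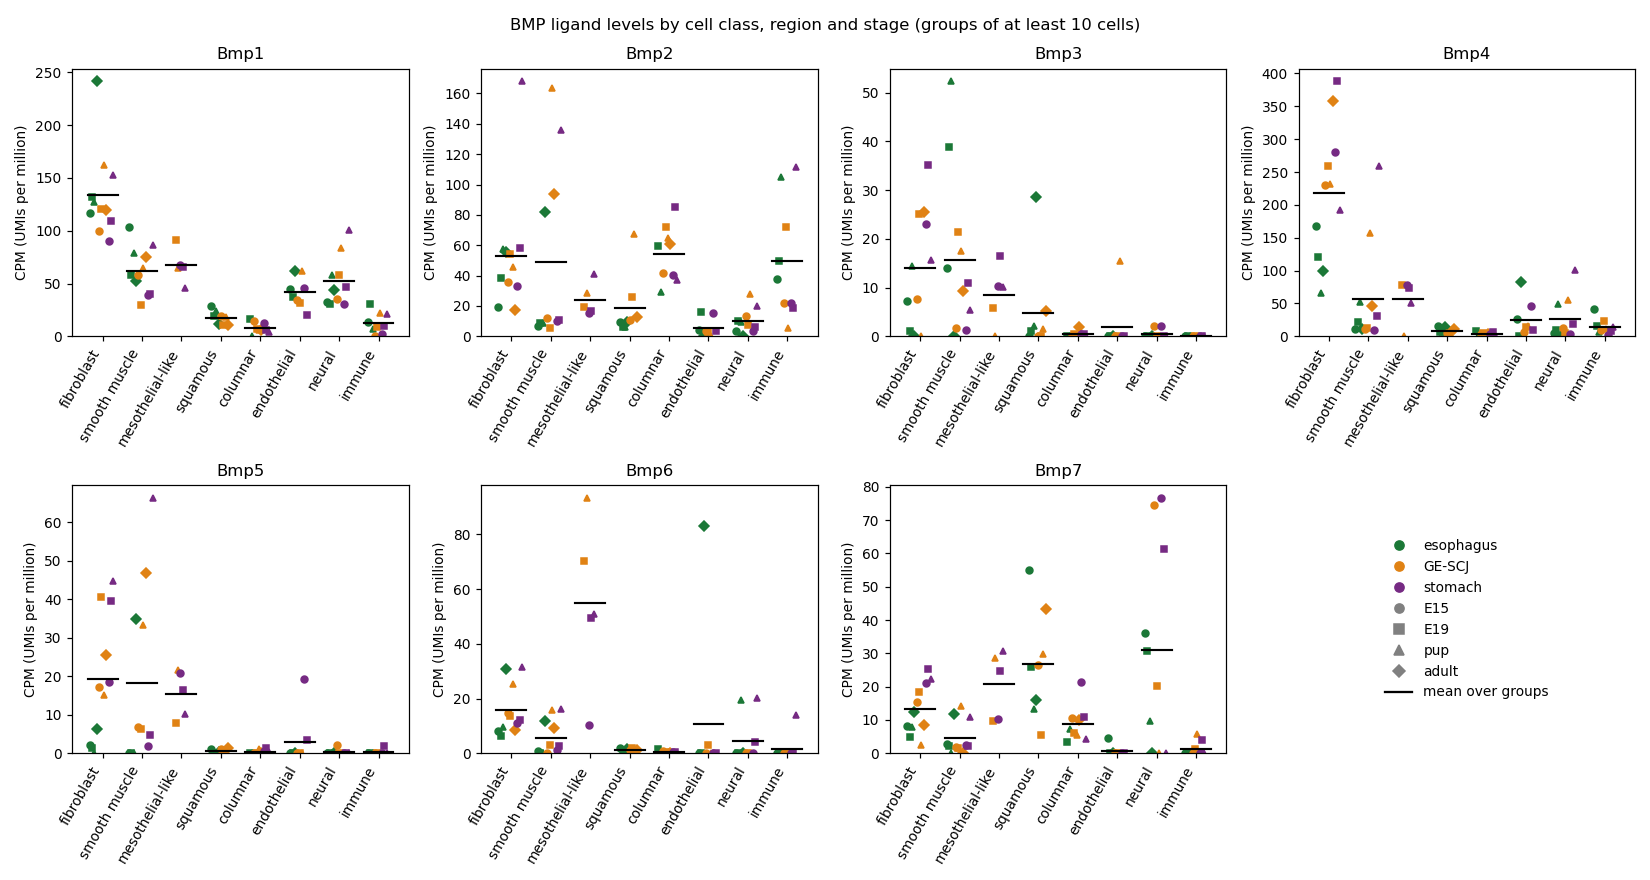
Level of each BMP ligand (vertical axis, CPM) by cell class (horizontal axis), with 1 point for each group of region (colour) and stage (symbol) of at least 10 cells and a black line at the unweighted mean over groups. Bmp4 points of fibroblasts lie between 65.3 and 388 CPM, Bmp6 has its highest mean, 54.8 CPM, in mesothelial-like cells, and Bmp7 has its highest, 30.9 CPM, in neural cells.

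Bmp4, which encodes the main mesenchymal BMP of the gut tube, followed region in fibroblasts at the prenatal stages. In the esophagus it measured 168 CPM at E15 and 120 CPM at E19, then 65.3 CPM in pups and 99.0 CPM in adults. GE-SCJ fibroblasts held 230 and 260 CPM at these fetal stages, 231 CPM in pups and 358 CPM in adults. Stomach fibroblasts held 280 and 388 CPM before birth and held 193 CPM in pups. The esophagus was lowest at every stage, and the GE-SCJ lay between both sides at E15 and E19. The adult GE-SCJ value rests on 42 UMIs in 15 cells (interval 258 to 484 CPM), 8 of which had mostly prenatal cells among their 15 nearest neighbours, so its stage is uncertain.

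Bmp5, a ligand of the Bmp5 to Bmp7 subgroup, was close to the counting floor in esophageal fibroblasts. These held 2.10 CPM at E15 and 1.29 CPM at E19, no UMI in pups (0 CPM, interval 0 to 5.88 CPM) and 1 UMI in adults (6.19 CPM). GE-SCJ fibroblasts held 17.2, 40.6, 15.2 and 25.6 CPM at E15, E19, pup and adult, and stomach fibroblasts held 18.6, 39.6 and 44.8 CPM at E15, E19 and pup. Both distal regions were above the esophagus up to the pup. The pup GE-SCJ value rests on 6 UMIs in 5 of 82 cells, and its interval overlaps that of the esophagus. The adult GE-SCJ value is 3 UMIs of 1 cell, which does not set it apart from the esophagus. The last stomach value was set by few cells, since 3 of 78 cells held 17 of the 20 UMIs.

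Bmp3 and Bmp7 had a like prenatal order. Bmp3 measured 7.35 CPM at E15 and 1.00 CPM at E19 in the esophagus, 7.69 and 25.2 CPM in the GE-SCJ, and 23.0 and 35.2 CPM in the stomach. Bmp7 measured 8.14 and 5.01 CPM in the esophagus, 15.4 and 18.5 CPM in the GE-SCJ, and 21.0 and 25.3 CPM in the stomach. Postnatal values of both rest on at most 10 UMIs a group. Bmp2 differed less between regions before birth, with 19.4 and 38.5 CPM in the esophagus, 36.1 and 54.4 CPM in the GE-SCJ, and 33.3 and 57.9 CPM in the stomach. In the pup it measured 57.3 CPM in the esophagus, 45.7 CPM in the GE-SCJ and 168 CPM in the stomach (132 to 211 CPM), where 1 of 78 cells held 24 of the 75 UMIs.

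Bmp1 ran the other way before birth. It measured 116 and 132 CPM at E15 and E19 in the esophagus, 100 and 120 CPM in the GE-SCJ, and 89.8 and 109 CPM in the stomach. In pups, Bmp1 was at 127, 163 and 152 CPM in the same order of regions, with overlapping intervals. Adult esophageal fibroblasts held the highest level, 241 CPM (172 to 330 CPM) from 39 UMIs in 31 cells, against 119 CPM (65.3 to 200 CPM) in the adult GE-SCJ. Bmp6 stayed between 6.45 and 31.4 CPM in the 11 fibroblast groups, with its highest values in the stomach of the pup (31.4 CPM) and the adult esophagus (30.9 CPM, 5 UMIs).

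**Figure D2:**
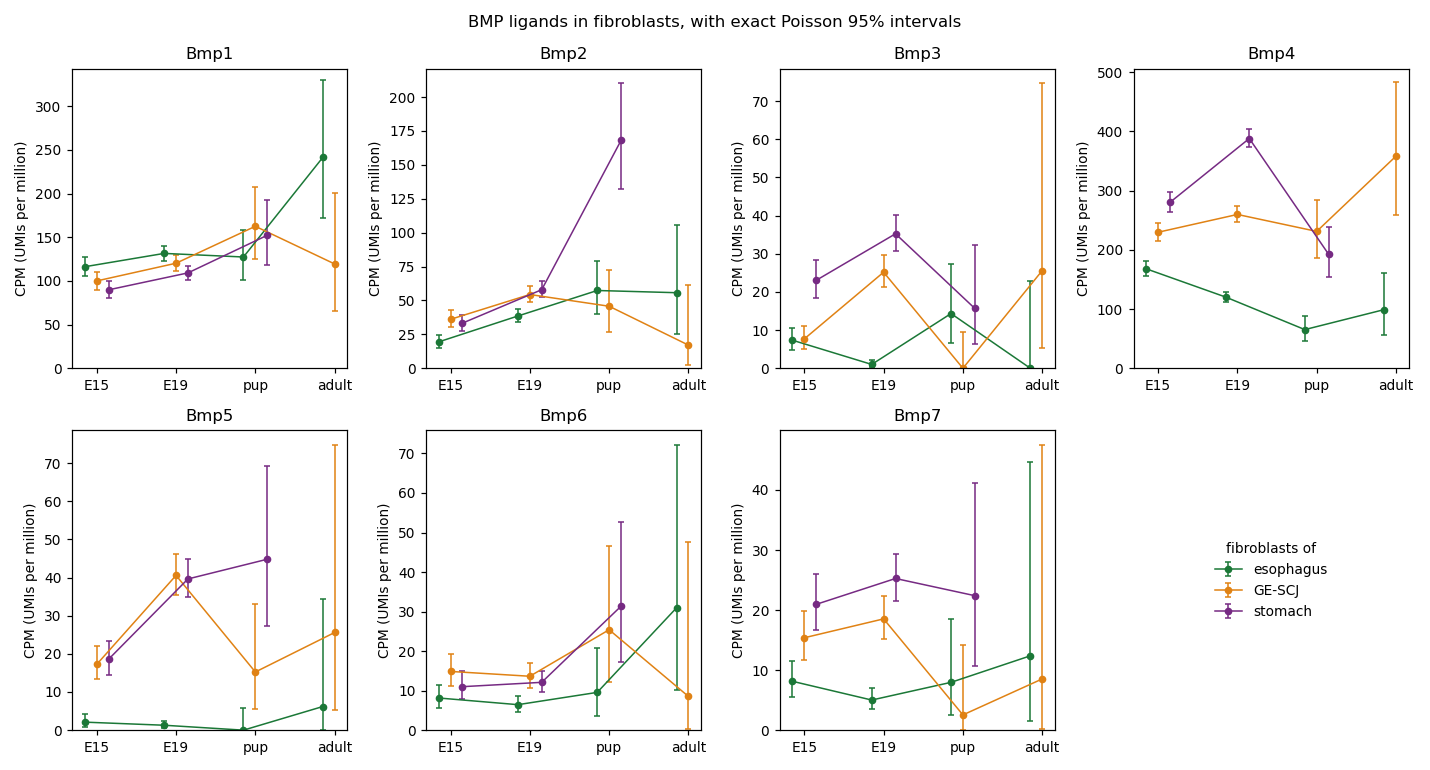
Level of each ligand in fibroblasts (vertical axis, CPM) at E15, E19, pup and adult stages (horizontal axis), coloured by region, with exact Poisson 95% intervals and lines that join pooled samples of a region. Bmp4 in the esophagus lies below the GE-SCJ at each stage (120 against 260 CPM at E19), and postnatal intervals are wide because 15 to 151 cells make up each group.

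Set against the esophagus, stomach fibroblasts had higher Bmp3, Bmp5 and Bmp7 at E15 and higher Bmp3, Bmp4, Bmp5 and Bmp7 at E19. Ratios are log2 ratios of summed UMIs with 1 UMI added to each sum, and a gene counts as past the fold when the ratio is at least 1 in size and both groups together hold at least 50 UMIs. At E15, 3 of the 7 ligands were past the fold upward, against 3.27% of 10392 genes. Bmp5 had a log2 ratio of 3.00 (interval 1.99 to 4.18), Bmp3 of 1.61 (1.00 to 2.27) and Bmp7 of 1.34 (0.73 to 1.98), while Bmp4 was at 0.74 (0.59 to 0.88) and Bmp2 at 0.77 (0.35 to 1.20). At E19, 4 of 7 were past it, against 5.14% of 11447 genes. Here Bmp3 was at 4.95 (3.95 to 6.18), Bmp5 at 4.80 (3.89 to 5.87), Bmp7 at 2.30 (1.77 to 2.86) and Bmp4 at 1.69 (1.57 to 1.80). No ligand was past the fold downward at these stages, and Bmp1 was at -0.37 and -0.27. In the pup, 2 of the 3 ligands with at least 50 UMIs were past it (2.7% of 3706 genes), Bmp2 at 1.53 (0.95 to 2.14) and Bmp4 at 1.54 (1.00 to 2.11). For Bmp2 this depends on 3 of the 78 stomach cells. The other 75 cells held 47 UMIs, or 110.5 CPM against 57.3 CPM in the esophagus, which is less than 2-fold. Bmp5, with 20 against 0 UMIs, was 9.37-fold higher when the floor of 3 counts was put in place of 0. This rests on few cells, since 75 of the 78 stomach cells together held only 3 of the 20 UMIs. The median log2 ratio of the ligands was 0.77 at E15 and 1.69 at E19, beside 0.12 and 0.14 over all genes.

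Fibroblasts of the 2 sides differed in their clusters in the deposited clustering. Cluster 0 held 58.79% of the esophageal fibroblasts at E15 and 91.34% at E19, cluster 1 held 38.33% of them at E15, near its 39.17% in the stomach, and clusters 1, 3 and 6 held most of those of the GE-SCJ and stomach. Clusters were formed from expression, so the following is a description. Cluster 1 was led by Dcx and Kit. It had 230.6 CPM of Kit, a marker of interstitial cells of Cajal, against 7.24 CPM in the other prenatal fibroblasts. Cluster 6, led by Procr, Dll1, Bmp3, Ccl11, Sept4 and Bmp5, took in 636 of the 1999 prenatal fibroblasts of GE-SCJ and stomach, or 31.82% of cells and 34.75% of their UMIs. In the esophagus it had 6 cells at E15 and 4 at E19. It was given no cell type name.

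Cluster 6 carried most of the distal ligand transcripts except those of Bmp1 and Bmp6. Its share was 93.93% of Bmp3 UMIs (91.4 to 95.9%), 89.84% of Bmp5 (87.2 to 92.1%), 89.29% of Bmp7 (85.9 to 92.1%), 66.98% of Bmp2 and 62.17% of Bmp4 (60.9 to 63.4%). For Bmp1 the share was 32.68%, near the share of cells, and for Bmp6 12.11% (8.38 to 16.8%). In the E19 stomach, cells of the cluster held 657 CPM of Bmp4 and the other fibroblasts 202 CPM. There the cluster had 90.3 CPM of Bmp5 against 4.60 CPM outside it, 79.2 against 4.86 CPM of Bmp3 and 58.8 against 2.05 CPM of Bmp7. Bmp6 had the opposite order, with 3.33 CPM inside and 18.2 CPM outside. In the E19 GE-SCJ the split was alike, with 524 and 142 CPM of Bmp4, 121 and 5.05 CPM of Bmp5 and 6.25 and 16.9 CPM of Bmp6. At E15 it was smaller for Bmp4 in the GE-SCJ, 299 against 191 CPM, than in the stomach, 559 against 165 CPM.

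**Figure D3:**
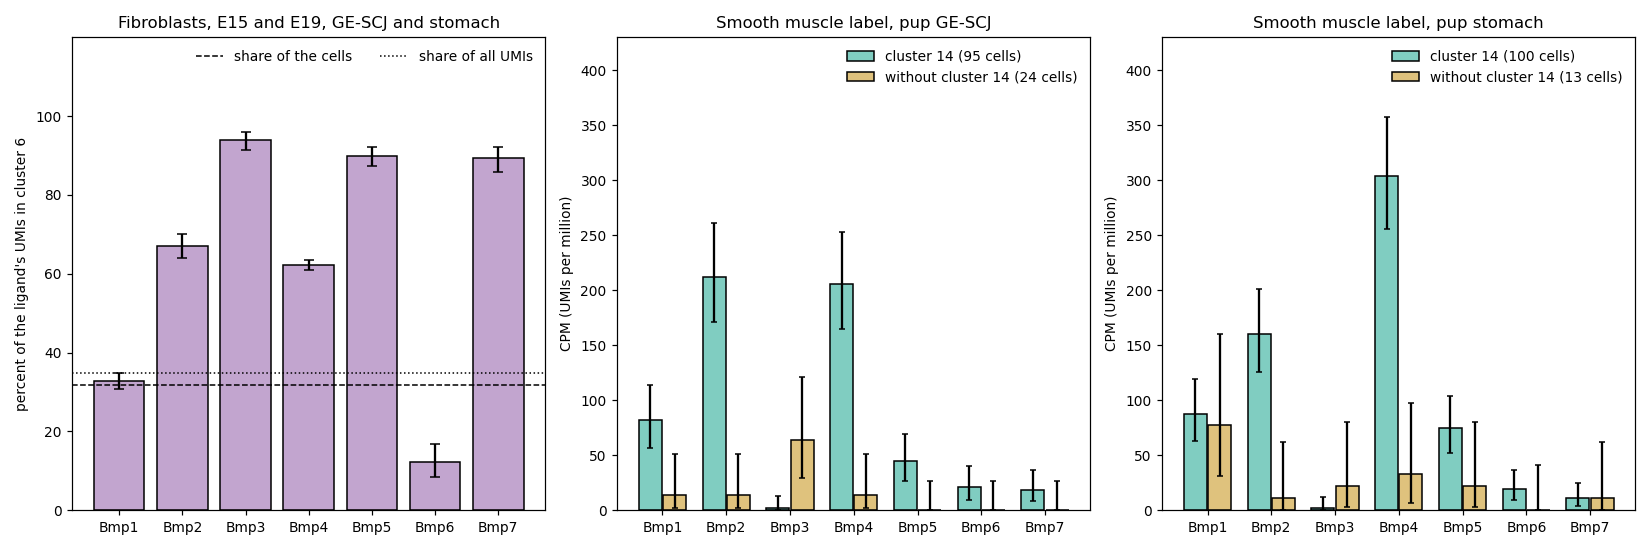
Left, percent of each ligand's UMIs (vertical axis) that lay in cluster 6 among prenatal GE-SCJ and stomach fibroblasts, with exact binomial 95% intervals and lines at the cluster's share of cells (31.82%) and of all UMIs (34.75%). Middle and right, CPM of each ligand in cluster 14 and in the other cells of the smooth muscle label in pup GE-SCJ and pup stomach, with Poisson intervals. Bmp3, Bmp5 and Bmp7 bars stand near 90%, and Bmp4 in cluster 14 stands at 205 and 303 CPM.

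Leaving out cluster 6 removes cells high in Bmp3 and Bmp5 by construction, and the ratios of the other cells are given as a description. The cells left, both sides together, held under 50 UMIs of each of Bmp3, Bmp5 and Bmp7 at both fetal stages, so only Bmp1, Bmp2, Bmp4 and Bmp6 could be counted there. At E15 the log2 ratio was -0.04 for Bmp4. For the scarce ligands it was 0.87 for Bmp5, -3.13 for Bmp3 and -0.99 for Bmp7, the last 2 with a change of sign. At E19 it was 0.74 for Bmp4, 2.34 for Bmp3, 2.26 for Bmp5 and -1.09 for Bmp7. Over the 3 stages the count past the fold upward was then 2 of 11 (Bmp6 at E19 with 1.47 and Bmp4 in the pup with 1.42; 3.34% over all genes), against 9 of 17 with the cluster (4.02% over all genes upward).

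**Figure D4:**
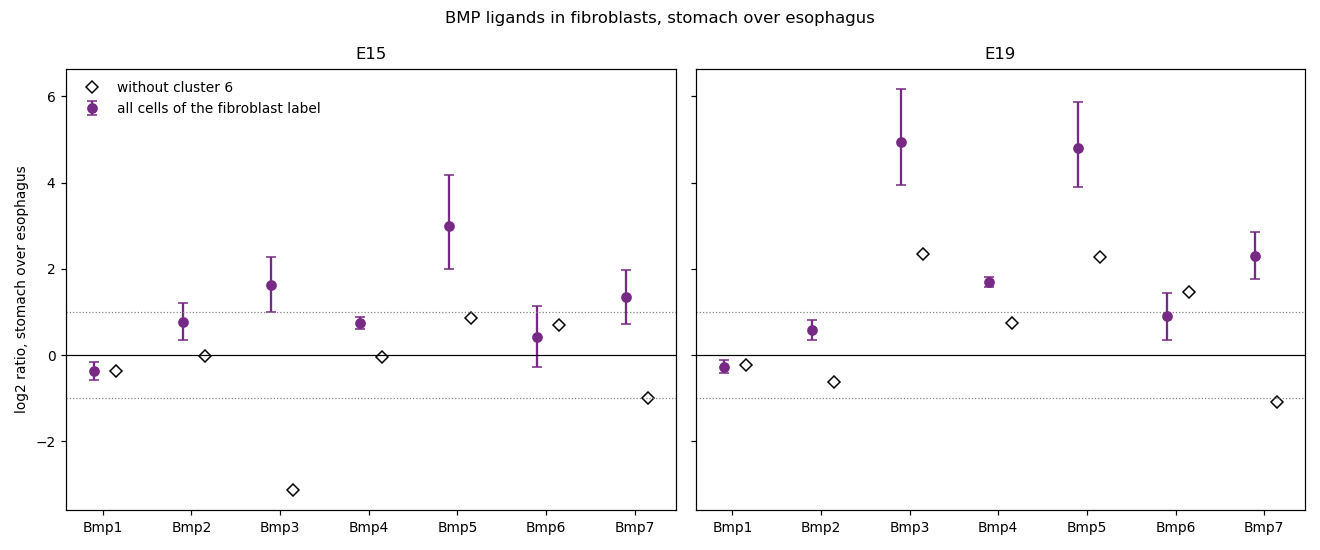
Log2 ratio of stomach over esophagus in fibroblasts (vertical axis) for each ligand (horizontal axis) at E15 and E19, with exact 95% intervals for all cells of the label (filled) and the values without cluster 6 (open diamonds); dotted lines mark a 2-fold difference. Bmp7 moves from 2.30 to -1.09 at E19 when the cluster is left out.

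GE-SCJ fibroblasts stood nearer to the stomach than to the esophagus for these ligands at E19, except for Bmp1, which lay about midway. Over the esophagus, 1 of 7 ligands was past the fold upward at E15 (2.45% of genes), Bmp5 at 2.89 (1.88 to 4.08). At E19, 5 of 7 were (5.29% of genes): Bmp5 at 4.83, Bmp3 at 4.47, Bmp7 at 1.86, Bmp4 at 1.11 (0.99 to 1.23) and Bmp6 at 1.07. Without cluster 6 these were 2.39, 1.17 and -0.38 on under 50 UMIs for Bmp5, Bmp3 and Bmp7, 0.24 for Bmp4 and 1.37 for Bmp6. In the pup, 1 of the 3 with enough UMIs was (2.11% of genes), Bmp4 at 1.80 (1.26 to 2.37). Over the stomach at E19, none of the 7 was past the fold in either direction (0.698% of genes upward, 0.274% downward), with Bmp5 at 0.03 (-0.23 to 0.29) and Bmp4 at -0.58 (-0.67 to -0.49). Without cluster 6, Bmp4 at E19 measured 121 CPM in the esophagus, 142 CPM in the GE-SCJ and 202 CPM in the stomach. Its GE-SCJ level then stood nearer to the esophagus. Bmp3 was lower in the GE-SCJ than in the stomach at E15, at -1.55 (-2.20 to -0.94), where 1.16% of genes were past the fold downward, and without cluster 6 the ratio was 0.74 on 2 and 1 UMIs. Bmp2 was lower in the pup, at -1.82 (-2.63 to -1.08; 2.05% of genes), with the single high cell named above in the stomach.

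Between E15 and E19, Bmp5 was higher at the later stage in both distal regions. In the GE-SCJ, Bmp3 had a log2 ratio of 1.67 (1.10 to 2.29) and Bmp5 of 1.22 (0.82 to 1.64), 2 of 7 ligands against 2.2% of genes. In the stomach, Bmp5 was at 1.08 (0.70 to 1.47), 1 of 7 against 2.33% of genes. Without cluster 6 the Bmp5 ratio was -0.32 in the GE-SCJ and 0.13 in the stomach, and that of Bmp3 in the GE-SCJ was 0.88, each on under 50 UMIs. Bmp4 differed little, with 0.18 (0.05 to 0.30) in the GE-SCJ and 0.47 (0.37 to 0.57) in the stomach. In the esophagus it was at -0.48 (-0.63 to -0.33), and none of the 5 ligands with at least 50 UMIs was past the fold (2.04% of genes upward, 2% downward).

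From E19 to the pup, the fibroblasts moved from clusters 0, 1, 3 and 6 to cluster 12, which held 76.92% to 98.68% of pup fibroblasts, so these ratios compare different clusters of the label. In the GE-SCJ, Bmp3 went from 144 UMIs to 0 (at least 3.30-fold lower), Bmp5 was at -1.20 and Bmp7 at -1.88, 3 of 7 ligands against 11.4% of genes downward. Bmp6 was at 1.02 (-0.04 to 1.93), 1 of 7 against 8.53% upward. In the stomach, Bmp2 was at 1.55 (1.18 to 1.91) and Bmp6 at 1.46 (0.55 to 2.26), 2 of 7 against 8.96% upward, and Bmp4 was at -0.99 (-1.32 to -0.69). None of 4 ligands was past the fold in the esophagus (9.75% of genes upward, 9.5% downward), where Bmp4 was at -0.85 (-1.33 to -0.40).

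Under the smooth muscle label, Bmp4 and Bmp2 were low before birth in each region and higher in pups of the distal regions. The label held different cells at these stages: cluster 2 made up 97.89% of the GE-SCJ and 96.25% of the stomach cells at E19, and cluster 14 made up 79.83% and 88.5% in pups. The pup esophagus differed from both, with 86.36% of its 22 cells in cluster 2. Outside cluster 14, pup Bmp4 measured 51.3, 14.2 and 33.3 CPM in esophagus, GE-SCJ and stomach, on 5, 2 and 3 UMIs. Bmp2 measured 10.3, 14.2 and 11.1 CPM there, on 1, 2 and 1 UMIs. The high distal pup levels lay in cluster 14, and a difference between regions within 1 cluster was not tested. In adults, cluster 2 made up 50% of the GE-SCJ and 30% of the esophageal cells. Clusters 6 and 14 held 36.67% and 33.33% of the latter, where Rgs5, a pericyte marker, measured 3156.5 CPM against 10.8 CPM at E19. Bmp4 measured 11.5, 21.6, 52.3 and 11.7 CPM in esophageal smooth muscle at E15, E19, pup and adult. GE-SCJ smooth muscle held 11.5, 13.2, 158 and 46.8 CPM of it, and stomach smooth muscle 9.68, 30.6 and 260 CPM up to the pup. Bmp2, which encodes the closest relative of BMP4, was also higher in the distal pups than at E19. It went from 5.79 CPM at E19 to 163 CPM in pup GE-SCJ and from 10.9 to 136 CPM in pup stomach. In the pup esophagus Bmp2 stayed at 8.72 CPM (1 UMI). Adult smooth muscle held 81.7 CPM of Bmp2 in the esophagus (14 UMIs) and 93.6 CPM in the GE-SCJ (10 UMIs), above its Bmp4. Bmp5 went from 6.20 to 33.4 CPM in the GE-SCJ and from 4.66 to 66.3 CPM in the stomach, while esophageal smooth muscle had 0 UMIs up to the pup. Distal pup groups were the high ones for Bmp4 and Bmp2. Adult smooth muscle held 35.0 CPM of Bmp5 in the esophagus (6 UMIs) and 46.8 CPM in the GE-SCJ (5 UMIs in 1 cell), within the interval of the pup GE-SCJ (20.1 to 52.1 CPM). Bmp3 had another order, with 14.1, 38.9 and 52.3 CPM in the esophagus at E15, E19 and pup, 1.73, 21.5 and 17.6 CPM in the GE-SCJ, and 1.21, 10.9 and 5.37 CPM in the stomach. The pup values rest on 6, 10 and 3 UMIs in this order of regions. Outside cluster 14 they were 61.6, 63.7 and 22.2 CPM, so the GE-SCJ was then not below the esophagus. Adult esophageal smooth muscle held 0 UMIs of Bmp3. Bmp1 was not low before birth, with 103 and 58.4 CPM at E15 and E19 in the esophagus, 57.7 and 29.4 CPM in the GE-SCJ, and 39.3 and 40.4 CPM in the stomach. In pups it measured 78.5, 65.0 and 86.0 CPM in the same order of regions.

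Most ligand ratios of smooth muscle over fibroblasts of the same region and stage were downward. Of 40 with enough UMIs over all regions and stages, 30 were past the fold downward (11.8% of ratios over all genes) and 1 upward (6.45%). At E15 and E19 alone, 29 of 32 were downward (11.8% over all genes), and without cluster 6 of the fibroblasts, which removes cells high in Bmp3 and Bmp5 by construction, 17 of 22 were (11.2%) while Bmp3 in the E19 GE-SCJ went from -0.21 to 3.27. Bmp3 in the esophagus went the other way on under 50 UMIs, at 0.98 (0.02 to 1.89) at E15 and 5.16 (3.91 to 6.56) at E19, and esophageal Bmp1 was at -0.16 (-0.47 to 0.13) at E15. Bmp4 was between -2.34 and -4.77 in the 6 prenatal comparisons. In pups it was at -0.55 (-0.98 to -0.11) in the GE-SCJ and at 0.42 (0.03 to 0.82) in the stomach. The upward ratio was Bmp2 in pup GE-SCJ, at 1.77 (1.05 to 2.57). It was -1.18 without cluster 14 of the label, on 2 UMIs in 24 cells against 18 UMIs in fibroblasts. Among cells led by markers of their own label it was -0.60.

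Cluster 14 held 95 of the 119 pup GE-SCJ cells and 100 of the 113 pup stomach cells under the smooth muscle label. It had 205 CPM of Bmp4 in the GE-SCJ and 303 CPM in the stomach, against 14.2 and 33.3 CPM in the other cells of the label. Bmp2 measured 212 against 14.2 CPM in the GE-SCJ and 160 against 11.1 CPM in the stomach, and Bmp3 was lower, at 2.33 against 63.7 CPM and 2.14 against 22.2 CPM. Its cells differed from a standard contractile profile. Over all pup cells, cluster 14 had 1634 CPM of Myh11 (smooth muscle myosin) and 4035 CPM of Col3a1, where cluster 2 of the same label had 5771 and 1624 CPM. Pdgfra, a fibroblast receptor, was at 167 against 21.7 CPM, and Rgs5, a pericyte marker, at 1362 against 310 CPM. Cluster 14 was given no cell type name, and the part of fibroblasts or pericytes in its values was not tested.

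Columnar epithelium was the main source of Bmp2 UMIs, and the squamous epithelium of the esophagus held less. Columnar cells of the GE-SCJ held 41.5 CPM at E15 and 71.7 CPM at E19, then 65.1 CPM in pups and 60.5 CPM in adults. Stomach columnar cells held 40.7, 85.0 and 37.0 CPM up to the pup. Esophageal squamous cells held 9.16, 5.85, 6.17 and 9.66 CPM from E15 to adult. Each of these columnar values lay above each of these squamous values. The lowest of all columnar groups of at least 10 cells, with those of the esophagus included, held 28.9 CPM. How many of all genes have ranges apart in this way was not counted, so the gap is not read as a result about Bmp2. Squamous cells of the GE-SCJ held 11.1, 26.0, 67.2 and 12.9 CPM, and the pup value, 45 UMIs in 18 of 46 cells, reached the columnar range.

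Stomach columnar over esophageal squamous cells, Bmp2 was past the fold at E15 (log2 ratio 2.01, interval 1.09 to 3.10), E19 (3.73, 2.88 to 4.73) and pup (2.37, 1.31 to 3.69), beside 8.45%, 12.3% and 24.6% of genes upward. Within the GE-SCJ it was at 1.80 (0.85 to 2.88) at E15 and 1.37 (0.63 to 2.22) at E19, beside 6.95% and 12% of genes, and at -0.08 (-0.51 to 0.39) in the pup. Columnar cells were not uniform. At E19, cells of cluster 7 held 129 CPM of Bmp2 and cells of cluster 4 held 75.3 CPM, and in the pup cluster 15 held 11.7 CPM.

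Bmp7, known from kidney and eye development, had its highest epithelial level in the squamous esophagus at E15. Squamous cells there held 55.0 CPM at E15 and 25.7 CPM at E19, against 13.4 CPM in pups and 15.9 CPM in adults. In the GE-SCJ they held 26.5, 5.57, 29.9 and 43.2 CPM. Over esophageal fibroblasts, squamous Bmp7 was at 2.74 (2.08 to 3.41) at E15 and 2.35 (1.69 to 3.03) at E19, 1 of 4 ligands each, beside 8.25% and 10.1% of genes upward. Columnar Bmp7 was at 21.5, 11.0 and 4.29 CPM in the stomach and between 5.49 and 10.6 CPM in the GE-SCJ. Together with Bmp1, Bmp7 gave the 8 of 16 ratios past the fold downward in columnar against squamous cells (9.59% over all genes).

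Adult esophageal squamous cells stood apart for Bmp3, with 92 UMIs in 62 of 232 cells, or 28.7 CPM (23.1 to 35.2 CPM). The other esophageal squamous groups held 0, 1.17 and 2.06 CPM, GE-SCJ squamous groups at most 5.15 CPM, and columnar groups at most 2.02 CPM. No cell held more than 4 of these UMIs. Adult esophageal fibroblasts held 0 UMIs of Bmp3 in 31 cells, so that the ratio is bounded only at 1.54-fold.

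**Figure D5:**
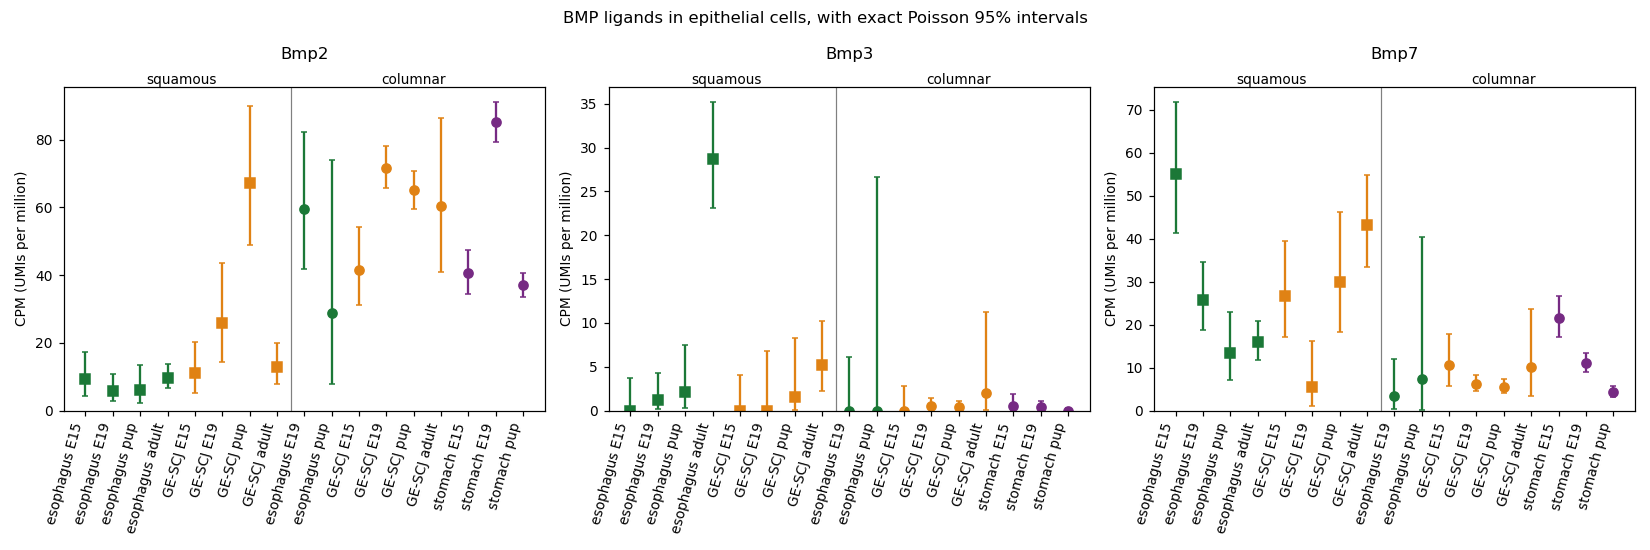
Level of Bmp2, Bmp3 and Bmp7 (vertical axis, CPM) in squamous (squares) and columnar (circles) groups of each region and stage with at least 10 cells, with exact Poisson 95% intervals. Bmp2 lies between 5.85 and 9.66 CPM in esophageal squamous cells and between 37.0 and 85.0 CPM in stomach columnar cells, and adult esophageal squamous cells stand apart for Bmp3 at 28.7 CPM.

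The remaining ligands were scarce in epithelium. Against fibroblasts of the same region and stage, 49 of 65 epithelial ratios were past the fold downward (23% over all genes) and 3 upward (11.9%), the latter being Bmp7 in the fetal esophagus at both stages and Bmp3 in adult squamous cells. The ratio of the last is fitted against 0 UMIs, and its bound of 1.54-fold lies under the 2-fold mark. The log2 ratio of columnar over fibroblast Bmp4 lay between -7.00 and -3.60, and GE-SCJ columnar cells at E19 held 0 Bmp5 UMIs where fibroblasts held 232, at least 96.9-fold lower. RNA set free from other cells, or doublets, can give such low counts, and their part was not tested. Per 1000 UMIs of the collagen gene Col3a1, columnar cells held 24.1 Bmp4 UMIs (20.6 to 28.1) and fibroblasts 27.4 (26.8 to 28.1). Smooth muscle, which had 1666.9 CPM of Col3a1, held 22.0 (19.9 to 24.3). Squamous cells stood higher, at 45.9 (37.7 to 55.4), as did endothelial cells, at 113 (77.5 to 158). Immune cells held 35.0 (26.2 to 45.7), mesothelial-like cells 26.0 (20.9 to 32.0) and neural cells 16.3 (11.9 to 21.8). Columnar Bmp2 was at 383 per 1000 (369 to 398) against 5.10 in fibroblasts, and squamous Bmp7 at 117 against 1.76. Mesothelial-like Bmp6 was at 20.5 (16.0 to 25.9) against 1.30, and neural Bmp7 at 65.9 against 1.76.

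Among the other classes, summed over regions and stages, 20 of 28 ratios over fibroblasts were past the fold downward (16.9% over all genes) and 2 upward (12%). The upward ones were Bmp6 in mesothelial-like cells, 52.9 against 11.3 CPM, at 2.24 (1.85 to 2.61), and Bmp7 in neural cells, 48.6 against 15.3 CPM, at 1.67 (1.42 to 1.92). Bmp6, best known as a regulator of hepcidin in iron balance, held 70.1 and 93.3 CPM in mesothelial-like cells of the GE-SCJ at E19 and pup, and 10.4, 49.4 and 50.9 CPM in those of the stomach at E15, E19 and pup. Neural Bmp7 was measured before birth at 36.1, 74.5 and 76.6 CPM in esophagus, GE-SCJ and stomach at E15 and 30.7, 20.3 and 61.2 CPM at E19. Pup groups held 1, 0 and 0 UMIs, where 3 counts would be 29.2, 41.9 and 30.1 CPM. The E19 level of the GE-SCJ lay under this floor, that of the esophagus was close to it, and that of the stomach was above it. Endothelial cells held less than fibroblasts of each of the 7 ligands, with 7 of 7 past the fold (18.4% of genes downward). For Bmp6 this rests on 6 endothelial UMIs, 4 of them in the adult esophagus (83.05 CPM against 30.9 CPM in fibroblasts), and the log2 ratio was 0.053 with CPM averaged over single cells.

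Immune cells held little of most ligands except Bmp2. They held between 5.64 and 111.5 CPM of it by group, 173 UMIs in all, and 1 GE-SCJ cell at E19 held 30 of the 57 UMIs of its group. Their ratio over fibroblasts was 0.06 (-0.18 to 0.29). Bmp3 had 0 UMIs in immune cells, at least 21.2-fold below fibroblasts.

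Shares of cells with a UMI were compared after each cell was thinned to 5000 UMIs, which left out 502 of the 3442 fibroblasts, 52 columnar and 101 immune cells. Bmp4 was found in 51.1% of thinned fibroblasts (58.7% unthinned, median depth 8940 UMIs), Bmp1 in 43.2%, Bmp2 in 13.98%, Bmp5 in 6.33%, Bmp7 in 5.41% and Bmp3 and Bmp6 in 5.31% each. In immune cells, taken as a class that should lack stromal ligands (median depth 8266.5 UMIs), Bmp4 was found in 3.95%, and Bmp3 in 0 of 253 cells, which allows up to 1.19%. Bmp2 was found in 13.8% of them, so that immune cells give no background for that ligand. Bmp2 was found in 23.3% of columnar cells (56.4% unthinned, median depth 25118 UMIs), against 5.67% of squamous cells. Columnar Bmp4, at 1.41%, was below the immune share. Both were uneven between cells: in the GE-SCJ at E19, 1 columnar cell held 12 of 37 UMIs and 1 immune cell held 12 of 18. Columnar cells were deeper, and the part of expression, free RNA or doublets in columnar Bmp4 was not tested. Mesothelial-like Bmp6 was found in 24.2% of 120 cells and neural Bmp7 in 19.05% of 336.

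BMP ligands can act as homodimers or heterodimers, so joint detection of Bmp2, Bmp4, Bmp5 and Bmp7 in single fibroblasts was counted. Of 2940 thinned fibroblasts, 43.2% held none of the 4, 42.0% held 1 and 14.9% held 2 or more. Bmp5 with Bmp7 was seen in 47 cells where the product of the single shares within each region and stage gave 12.6, a ratio of 3.73. For Bmp2 with Bmp5 the ratio was 2.75, for Bmp2 with Bmp7 2.70, for Bmp4 with Bmp5 1.52 and for Bmp2 with Bmp4 1.36. Inside cluster 6 the ratios lay between 1.14 and 1.86, and 42.3% of its 624 thinned cells held 2 or more, against 7.47% of the 2316 others. Each of the 47 thinned cells with both Bmp5 and Bmp7 belonged to cluster 6, of which Bmp5 is a leading gene, and unthinned 5 of 117 lay outside it.

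Genes with the most similar pattern were named by Pearson's r of log2(CPM + 10) over 54 groups of class, region and stage, among 11672 genes. The groups share 1 library, so r is a description. Bmp1 was nearest to Fstl1 (r = 0.916), Bmp4 to Svep1 (0.896), Dnm3os (0.886) and Tcf21 (0.867), Bmp6 to B3gnt9 (0.867) and Bmp5 to Tmem100 (0.844). Tcf21 encodes a transcription factor of visceral mesenchyme. The nearest genes of Bmp2 (Sytl2, 0.694), Bmp3 (Chrm2, 0.681) and Bmp7 (Nckap5, 0.669) were less like them.

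The rest of the pathway was compared between stomach and esophageal fibroblasts in the same way, with counts over the members that had at least 50 UMIs. At E15, 3 of 5 Id and other target genes were past the fold upward (3.27% of all genes), with Id1 at 1.92 (169 against 44.4 CPM), Id2 at 1.57 and Id3 at 1.42, and none downward. Of 7 signal transducers, the inhibitory Smad6 (1.26) and Smad7 (1.15) were upward and none downward. None of 11 receptors and co-receptors and none of 3 proprotein convertases was past the fold, and neither was Gdf10, the 1 tested gene of the other BMP-class ligands. Of 9 antagonists, Grem1 was higher in the stomach, at 2.46 (19.9 against 3.41 CPM), and Nbl1 (-1.66) and Sostdc1 (-5.70, 2.88 against 164 CPM) were lower. Of 5 tested genes of the procollagen list, 4 were lower in the stomach (2.9% of genes downward). These were the collagen genes Col1a2 at -1.33, Col1a1 at -1.25 and Col3a1 at -1.11, and Lox at -1.02. The only tested gene of the list that is neither a collagen gene nor Lox was not past the fold.

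At E19 the targets again had 3 of 6 upward, against 5.14% of all genes (Id1 at 1.90, Id3 at 1.33, Bambi at 1.15). Of 8 signal transducers, Smad6 (1.84), Smad7 (1.39) and Smad9 were upward. Of 10 antagonists, Grem1 (2.62) and Fst were upward, and Sostdc1 (-3.15), Nbl1 (-2.09) and Chrd (-1.06) were downward. Of the procollagen list, 4 of 5 were downward (3.31% of genes), again the collagen genes and Lox. Of 11 receptors and co-receptors Bmpr1b was downward, and so was Pcsk5 of 4 proprotein convertases (-1.26). Gdf10, another BMP-class ligand, was upward at 1.36, and Gdf6 downward. In the pup, none of the 3 targets tested was past the fold, and Id3 was at -0.53 (-0.84 to -0.24), while Grem1 was upward at 2.95, 1 of 4 antagonists (2.7% of all genes). Of the 2 convertases tested, Pcsk5 was at -1.53 (107.5 CPM in the stomach against 315 CPM in the esophagus) and Furin at -0.28. None of the receptors, signal transducers, procollagen genes or other ligands was past the fold. For the targets the median log2 ratio was 1.42 and 0.97 before birth and 0.27 in pups.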

How the data were processed

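The authors aligned 10x Genomics 3′ reads with Cell Ranger 6.1.1 to mm10, per the submitters' processing notes, and deposited counts of UMIs per gene and cell, with cell type, cluster and sample labels and the percent of mitochondrial UMIs per cell. Per the methods of the study, barcodes with under 100 or over 8500 genes, over 80000 UMIs or over 20% mitochondrial UMIs were removed, as were 2 subgroups of poor read counts. No doublet caller was run here. The columns not mapped to a sample numbered 0.

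UMIs were summed over the cells of each class, region and stage, in groups of at least 10 cells for levels and 20 for ratios. Since each mouse pool is 1 sample, ratios carry exact 95% conditional binomial intervals and no test. Depth was 143 to 1403 cells per region and stage. A ratio on simulated counts for E15 fibroblasts (stomach over esophagus, 10353 genes) had its interval cover the true value for 95.6% of unchanged genes. For genes with a set change, coverage was 90.0% to 97.7%. The counts were drawn from the Poisson model that the interval assumes, so this checks the calculation and not the spread between cells. Nearest neighbours (15 per cell) came from 30 components of 2000 variable genes with seed 1. The work ran in Python 3.11.15 with pandas 2.3.3, scipy 1.17.1, numpy 2.4.6, scanpy 1.11.5, scikit-learn 1.9.0 and matplotlib 3.10.9.

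The ligands and lists were chosen with earlier results of these data known. Named were the 7 ligands, the genes of highest r for each (from the first 3) and at most 4 genes per list with the largest E15 ratio. Smad9, Fst, Bmpr1b and Gdf6 were named after their values were seen, as were cluster markers outside the fixed lists. Alternatives changed the UMI added, the filters, the scaling, the cells kept and the thinning depth.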

Additional observations from a re-analysis of the deposited data

Results flagged for a closer look

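Several fibroblast and smooth muscle ratios took opposite directions in different regions under the same contrast. With 1 pooled sample per region and stage, the difference between regions was not tested.

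Bmp3, the divergent ligand, had fibroblast log2 ratios (E19 over E15) of 1.67 (1.10 to 2.29) in the GE-SCJ and 0.60 (0.24 to 0.97) in the stomach, but -2.73 (-4.07 to -1.57) in the esophagus. From E19 to the pup the order turned, with 3.80 (2.30 to 5.34) in the esophagus and -3.32 (-8.63 to -0.82) in the GE-SCJ, where the pup held 0 UMIs and the fitted value depends on the UMI added. Both esophageal ratios rest on under 50 UMIs, the first on 7 against 28 and the second on 9 against 7. The 9 pup UMIs lay in 4 of 151 cells. Of the 28 earlier UMIs, 20 lay in cluster 1, which held 38.33% of esophageal fibroblasts at E15 but 7.172% at E19. The part of this cluster in the first ratio was not tested. Bmp4 in fibroblasts had a ratio (E19 over E15) of 0.18 (0.05 to 0.30) in the GE-SCJ, 0.47 (0.37 to 0.57) in the stomach and -0.48 (-0.63 to -0.33) in the esophagus.

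Smooth muscle over fibroblasts, Bmp3 was at 0.98 (0.02 to 1.89) in the esophagus at E15, against -1.79 (-3.75 to -0.28) in the GE-SCJ and -3.68 (-5.99 to -2.09) in the stomach. At E19 it was at 5.16 (3.91 to 6.56) in the esophagus and -1.64 (-2.34 to -1.002) in the stomach. The esophageal ratios rest on under 50 UMIs, and that of the GE-SCJ at E15 on 3 against 29 UMIs. In these pairs the fibroblasts of GE-SCJ and stomach included cluster 6, which held 93.93% of their prenatal Bmp3 UMIs. Without it the stomach ratio was 1.29 at E15, on 2 against 1 UMIs, and 1.16 at E19, on 21 against 19. Such counts do not settle whether the regions differ outside the cluster. In pups, Bmp4 over fibroblasts was at 0.42 (0.03 to 0.82) in stomach smooth muscle and -0.55 (-0.98 to -0.11) in the GE-SCJ, where cluster 14 held 100 of 113 and 95 of 119 cells of the label.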

How the results depend on the processing

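Of 350 ligand ratios in 50 comparisons, 239 had at least 50 UMIs and 145 were past the fold. These 145 kept their direction, and none moved beyond its interval, with 0.5 UMI added. The same held with a floor of 1000 UMIs and a ceiling of 10% mitochondrial UMIs per cell. It also held without mitochondrial, ribosomal protein and hemoglobin genes in the library size, and without adult cells of mostly prenatal neighbours. The last setting could change only ratios that include adult cells. Adult GE-SCJ fibroblasts (15 cells), smooth muscle (16) and columnar cells (19) were too few for ratios by region and stage. Median-of-ratios scaling moved 1, dropping the top 1% of cells for a given gene moved 24, keeping cells led by their own markers moved 12, and averaging CPM over single cells moved 3.

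Leaving out cluster 6 or 14 was chosen after seeing the data. Without cluster 6, ratios past the fold in either direction numbered 2 for stomach over esophagus (from 9), 4 for the GE-SCJ (from 9), 1 between stages (from 9) and 20 for smooth muscle over fibroblasts (from 31), beside 6.29%, 3.82%, 10.7% and 17.9% over all genes. At E15 and E19 alone, the last count was 18, also chosen after seeing the data. Signs then changed for Bmp3 (-3.13) and Bmp7 (-0.99) at E15 and Bmp7 at E19 (-1.09) in stomach over esophagus, Bmp3 at E15 in GE-SCJ over stomach (0.74) and Bmp7 at E19 in GE-SCJ over esophagus (-0.38). They also changed in the GE-SCJ for Bmp5 from E15 to E19 (-0.32) and for Bmp3 (0.19), Bmp5 (0.97) and Bmp7 (0.45) from E19 to the pup. The last 3 compare 8 UMIs with 0, 20 with 3 and 14 with 1. Bmp3 and Bmp7 still had a lower CPM in the pup (0 against 2.02 and 2.59 against 3.53 CPM), so their signs came from the UMI added. Smooth muscle over fibroblasts, signs changed for GE-SCJ Bmp5 (0.19 at E15, 0.32 at E19) and, in the stomach, for Bmp3 (1.29 and 1.16), Bmp5 (0.092 at E19) and Bmp7 (0.17 at E19). Each of these rests on under 50 UMIs. Bmp2 in the pup GE-SCJ turned to -1.18 without cluster 14, on 2 against 18 UMIs, and to -0.60 in cells led by their own markers. Endothelial Bmp6 turned to 0.053 where CPM was averaged over single cells.

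With no minimum of UMIs the counts were 15 (GE-SCJ), 14 (stages), 47 (smooth muscle) and 29 (columnar over squamous, from 13), beside 17.7%, 26.2%, 29.3% and 36.8% over all genes. Ligands whose share of fibroblasts lay above that of immune cells, with intervals apart, numbered 6, and 3 where a cell needed 2 UMIs. No share over all genes stands beside these counts, so they are not read as a result about the ligands. Of the 21 genes nearest to the ligands (3 each), 8 were shared with log2(CPM + 1), 3 with groups of at least 50 cells and 4 with Spearman's rho. For these the cause was not tested. No paired analysis was run: mice were pooled, so regions could be matched by stage but not by mouse. Each region and stage is 1 pooled sample, which also leaves no replicate to omit. Counting depth limits postnatal and adult fibroblast values, as do the change of clusters from E19 to the pup and the uncertain stage of some adult cells.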
